A study of Mus musculus with 9 samples.

Results

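The 10 astrocyte homeostasis genes described here are made mainly by astrocytes: Slc1a2, Slc1a3, Glul, Gja1, Gjb6, Aqp4, Slc4a4, Aldh1l1, Aldoc and S100b. Several of them keep the brain's extracellular space in balance, while Aldoc and Aldh1l1 encode enzymes of metabolism. The 10 genes were chosen by name, with earlier results of these data known. Each is 1 row of the deposited table, so they are 10 of its 22192 genes. The libraries came from KM mice, an outbred stock, labelled male. Young mice were 5 months old and aged mice 18 months old, and both received physiological saline by mouth every 2 days for 4 weeks. A further group of 18-month-old mice was given GRP-E1F2, a ginseng root polysaccharide, at 200 mg/kg on the same schedule. No allele or transgene is named for any group. Each of the 3 groups holds 3 libraries, which the labels describe as parallel samples without saying whether separate animals gave them, so p-values reflect no more than the spread among these libraries, which may be technical.

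Astrocytes clear glutamate from synapses, turn it into glutamine and hand that back to neurons. They pass ions and small molecules to each other through gap junctions and move water and bicarbonate at the processes that wrap blood vessels and synapses. Their genes differ between regions: Bergmann glia, the radial astrocytes of the cerebellum, hold much Slc1a3, while forebrain astrocytes hold much Slc1a2. None of these genes is strictly limited to astrocytes, since Aldoc is also a gene of Purkinje cells and S100b and Glul are also made in oligodendrocytes.

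The start regions of 4 members are shown because Slc1a3, Aldoc and S100b were lower in each later step of the design (young saline, aged saline, aged GRP-E1F2) while Glul was not. Each sequence is the 250 bases before the gene's RefSeq start (GRCm38.p6, the assembly also called mm10), 5′ to 3′ on the gene's strand. They lie at chr15:8710808-8711057, minus strand (Slc1a3), chr11:78322823-78323072, plus strand (Aldoc), chr10:76253586-76253835, plus strand (S100b) and chr1:153899679-153899928, plus strand (Glul). Capitals mark every match on either strand to 8 short motifs.
Slc1a3: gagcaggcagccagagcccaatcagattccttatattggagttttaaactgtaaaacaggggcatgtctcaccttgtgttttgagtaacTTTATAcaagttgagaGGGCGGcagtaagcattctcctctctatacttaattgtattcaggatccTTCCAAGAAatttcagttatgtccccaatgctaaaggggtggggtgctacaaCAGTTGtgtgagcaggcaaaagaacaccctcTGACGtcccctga
Aldoc: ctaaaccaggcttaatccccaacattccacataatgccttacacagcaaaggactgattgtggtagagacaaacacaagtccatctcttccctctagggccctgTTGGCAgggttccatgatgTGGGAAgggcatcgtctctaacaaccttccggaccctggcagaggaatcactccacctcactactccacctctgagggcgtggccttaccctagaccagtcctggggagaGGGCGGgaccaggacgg
S100b: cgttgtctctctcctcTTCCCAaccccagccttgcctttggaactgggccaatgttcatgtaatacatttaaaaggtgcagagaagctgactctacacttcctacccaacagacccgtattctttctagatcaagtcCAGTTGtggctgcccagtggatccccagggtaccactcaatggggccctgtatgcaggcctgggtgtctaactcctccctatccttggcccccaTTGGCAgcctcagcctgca
Glul: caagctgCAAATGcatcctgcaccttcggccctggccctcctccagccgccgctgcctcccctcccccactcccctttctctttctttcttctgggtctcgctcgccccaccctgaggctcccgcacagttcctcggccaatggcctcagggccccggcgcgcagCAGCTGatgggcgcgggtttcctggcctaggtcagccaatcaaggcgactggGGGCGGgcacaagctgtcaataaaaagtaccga
The motifs were the E-box (CANNTG, in 66.2% of 32851 such windows), the GC box (GGGCGG, 32.7%), the RBPJ motif (TGGGAA, 21.6%), the cyclic AMP response core (TGACG, 17.8%), a SOX motif (ACAAAG, 16.5%), the TATA box (TATAAA, 12.4%), the nuclear factor I motif (TTGGCA, 12.3%) and the STAT motif (TTCNNNGAA, 7.02%). The Slc1a3 window held the TATA box, the GC box, the STAT motif, the E-box and the cyclic AMP response core. Aldoc held the nuclear factor I motif, the RBPJ motif and the GC box, and S100b held the RBPJ motif, the E-box and the nuclear factor I motif. The Glul window held 2 E-boxes and the GC box. It had 15 CpG pairs against a median of 6 over all windows, while Aldoc had 5, near that median, and Slc1a3 and S100b had 2 each. No marked matches overlapped one another. A match is a description of letters only. RefSeq windows matched 9 of the 10 members, all but Aqp4, and those of Slc1a2 and Slc4a4 lay at least 48199 bases inside the gene.

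The deposited values are TPM, a measure scaled for gene length and library size that allows levels to be compared between genes but keeps no record of depth. Within every group, 1 library was intermediate at most genes at which the remaining libraries were 1.3-fold or more apart. Such genes numbered 2165 for young library 3, 3333 for aged library 2 and 3299 for GRP-E1F2 library 3, of 13301 tested. At these, young library 3 was intermediate at 89.1%, aged library 2 at 91.5% and GRP-E1F2 library 3 at 91.9%. By the same measure no other library was intermediate at more than 30.5%. Over the 10 members, counted without the 1.3-fold limit, these 3 libraries were intermediate at 9, 6 and 10 genes. SDs and p-values over 3 libraries may therefore be too small, and calls are also given from 2 libraries per group, without those 3. Neuronal genes were abundant in every library (summed TPM of 8 genes 4510 to 5690), while the labels' extraction text speaks of retina although the tissue is labelled brain. Apart from Rlbp1, which brain astrocytes also make, no gene of the retina list passed 1.28 TPM. The 4 Y-linked genes examined were at most 0.174 TPM, which goes against the label male.

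In aged saline libraries 8 of the 10 members had fallen relative to young saline libraries and none had risen, by limma on log2(TPM + 1) with p-values adjusted over 13301 genes. Among all genes tested, 11.2% fell and 5.48% rose in that comparison. Because the members were chosen with earlier results of these data known, such shares stand beside the counts as description and are no test. With GRP-E1F2, 6 members fell relative to aged saline, 5 of which had also fallen with age (Aldh1l1 had not), and 1, Glul, rose, where 13.4% of all genes fell and 7.47% rose. Against young saline, the GRP-E1F2 libraries had 8 members lower and 1, Slc1a2, higher, beside 29.4% of all genes that fell and 17.2% that rose. Counts of the other gene lists below are to be read beside these same shares. The median log2 fold changes of the members were -0.45, -0.37 and -0.98 in the 3 comparisons, and those of all genes tested -0.05, -0.02 and -0.07. These comparisons share libraries (the aged saline group stands in the first and the second), so their values are set side by side and are not independent of each other. In bulk tissue, fewer astrocytes, less RNA per astrocyte and a different make-up of brain regions cannot be told apart. Region genes differed between young, aged saline and GRP-E1F2 libraries. Cerebellar neuron genes summed to 6242 to 8617, 4109 to 4387 and 508 to 598 TPM. Hindbrain genes summed to 37.5 to 52.1, 1.58 to 7.04 and 0.181 to 0.657 TPM. Neocortical genes went the other way, at 632 to 945, 1209 to 1420 and 1323 to 2081 TPM. What part region had in the member counts was not tested.

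From 2 libraries per group, 0 of the 10 members passed with age (0.0226% of all genes), 2 passed with GRP-E1F2 against aged saline (Aqp4 and Aldoc, with 1.86% of all genes) and 7 with GRP-E1F2 against young saline (12.9%). Counting only whether groups overlap, with age 8 members had every aged value below every young one and 1 member, Slc1a2, every aged value above, where all genes tested gave 26.8% lower and 14.7% higher. The GRP-E1F2 values lay wholly below those of aged saline at 8 members and wholly above at 1 (all genes 21.5% and 14.9%). Against young saline they lay below at 8 and above at 1 (38.5% and 22.9%). Scaling the libraries by median of ratios evened out the calls over all genes, to 925 that rose and 1025 that fell with age (729 and 1488 unscaled), 1302 and 1613 with GRP-E1F2 against aged saline (994 and 1777), and 3015 and 3074 against young saline (2294 and 3910). No member changed direction under that scaling, and S100b with age was the call it ended.

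**Figure D1:**
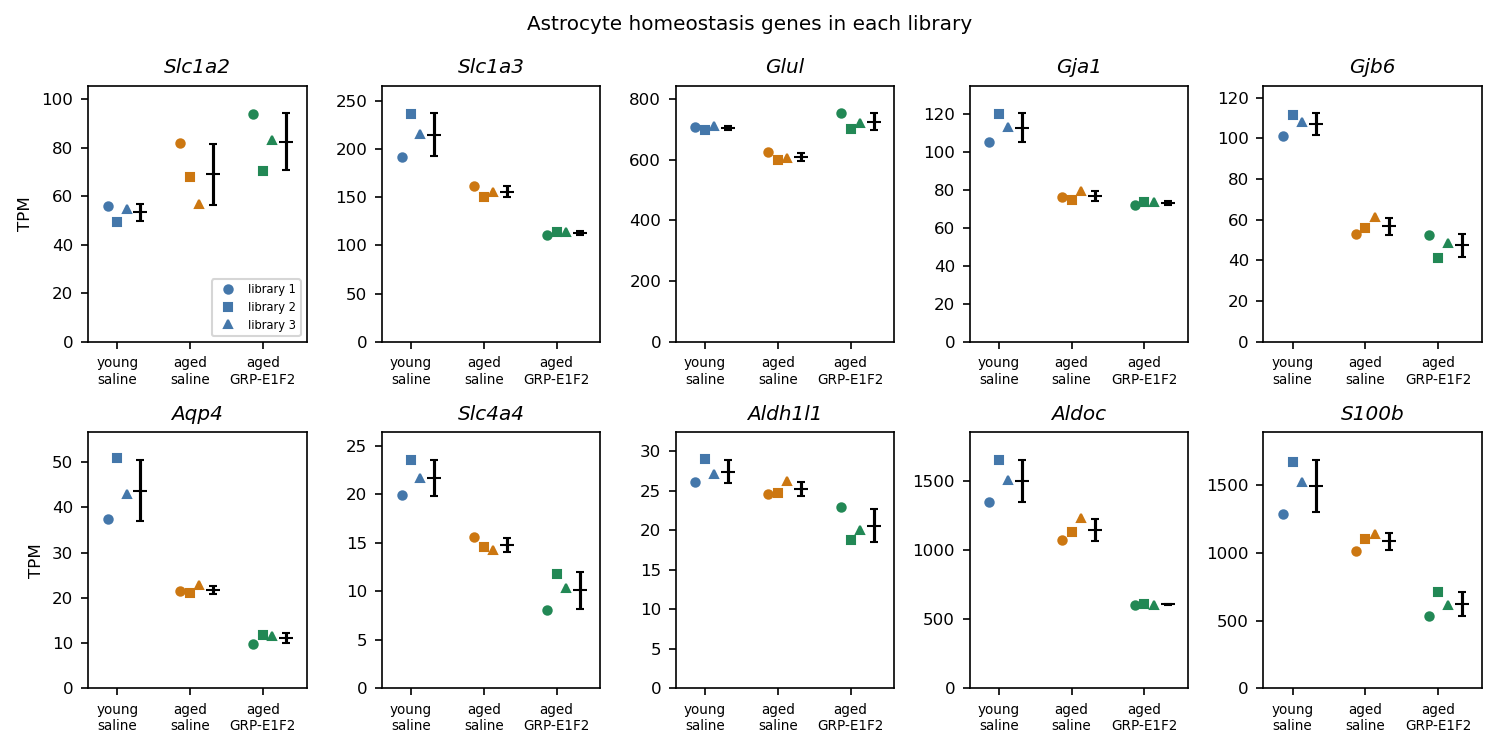
TPM of each of the 10 genes in each of the 9 libraries (symbols give the library number, colours the group), with the mean ± SD of 3 libraries beside each group. Slc1a3, Aqp4, Slc4a4, Aldoc and S100b step down from young to aged saline and again to GRP-E1F2, for example Slc1a3 at 215, 156 and 113 TPM on average, Slc1a2 is highest in the GRP-E1F2 group on average (82.5 TPM), and Glul is lowest in aged saline (610.0 TPM).

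**Figure D2:**
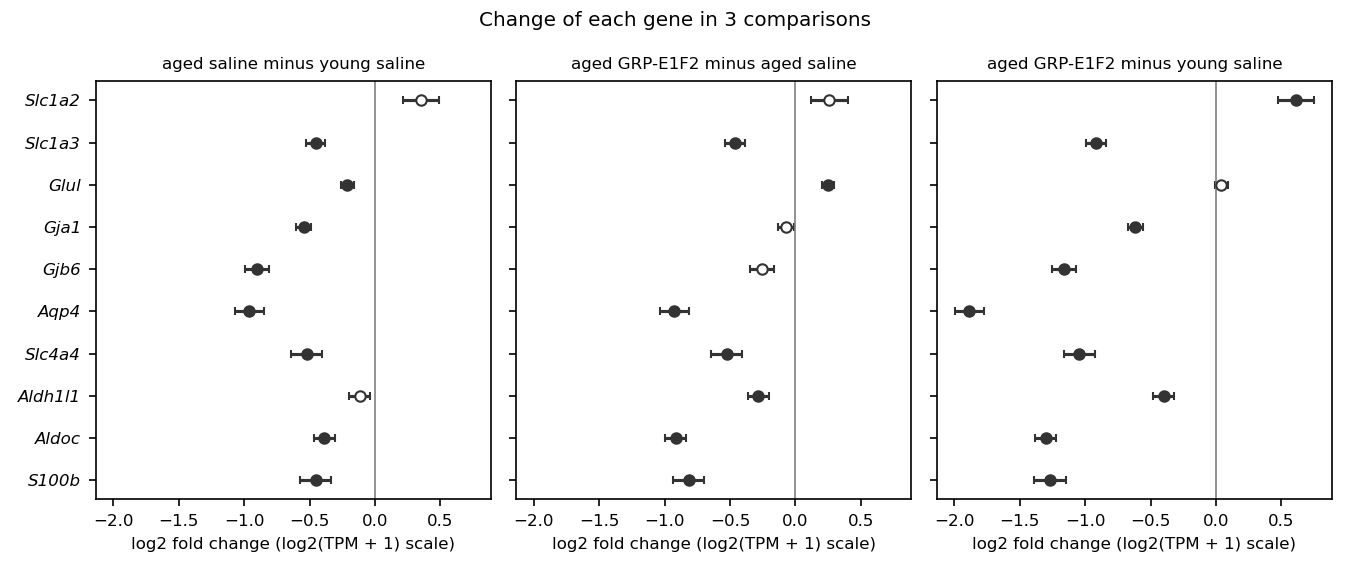
Log2 fold change of each gene on the log2(TPM + 1) scale in each comparison, with its standard error as the bar. Filled points passed an adjusted p of 0.05: 8 genes with age, 7 with GRP-E1F2 against aged saline and 9 with GRP-E1F2 against young saline, where Slc1a2 alone passed to the right of 0.

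Together the 10 genes made up 3878, 4634 and 4321 TPM in young libraries 1 to 3, 3149, 3235 and 3393 TPM in the aged saline libraries, and 2260.0, 2364 and 2300.1 TPM in the GRP-E1F2 libraries. The sums of the 3 groups did not overlap. Aldoc and S100b held the largest shares in young and aged saline libraries. Aldoc was 34.7% to 35.6% of the sum in young libraries and 25.8% to 26.7% in GRP-E1F2 libraries, and Glul went from 15.1% to 18.2% up to 29.7% to 33.4%. In young libraries the order of mean level ran Aldoc, S100b, Glul, Slc1a3, Gja1, Gjb6, Slc1a2, Aqp4, Aldh1l1 and Slc4a4. The ranges of Aldoc and S100b, of Gja1 and Gjb6, and of Slc1a2 and Aqp4 overlapped there, and the other neighbours were apart. With GRP-E1F2 Glul came first, ahead of S100b and Aldoc by its mean, with the range of Glul overlapping that of S100b. Slc1a2 had moved up past both connexins, with its range overlapping that of Gja1.

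**Figure D3:**
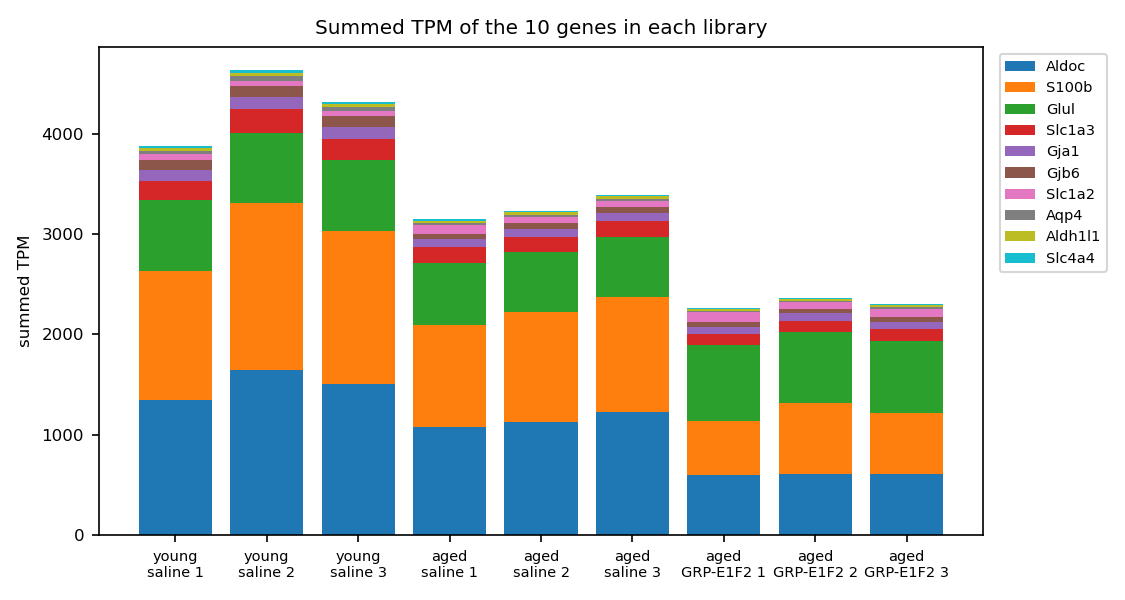
Stacked TPM of the 10 genes in each library, from 0. The height drops from 3878 to 4634 TPM in young libraries to 2260.0 to 2364 TPM in GRP-E1F2 libraries, mainly in the Aldoc and S100b blocks, while the Glul block stays between 599 and 755 TPM.

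The first group of members handles glutamate. Slc1a3 encodes GLAST (EAAT1), the glutamate transporter most abundant in Bergmann glia (NCBI gene 20512, chromosome 15, 8634124 to 8710807, mm10). Its level was 192, 237 and 215 TPM in young libraries 1 to 3, 162, 150.5 and 156 TPM in aged saline libraries and 111, 114 and 113 TPM in GRP-E1F2 libraries. No values of different groups overlapped, and the GRP-E1F2 libraries lay closest together. Slc1a3 fell with age by 0.45 on the log2 scale (SE 0.074, adjusted p = 0.00804) and fell again with GRP-E1F2 by 0.46 (SE 0.074, adjusted p = 0.00295), to a log2 fold change of -0.92 against young saline (adjusted p = 2.4e-05). Beside this, Gdf10, a Bergmann glia gene, was 39.1 ± 5.89, 22.7 ± 1.50 and 3.49 ± 1.13 TPM (SD, n = 3) in young saline, aged saline and GRP-E1F2 libraries, and Hopx, another, 1021 ± 166, 898 ± 133 and 284 ± 82.1 TPM. Fabp7, the remaining gene of this list of 3, was 163 ± 4.45, 185 ± 29.7 and 161 ± 50.3 TPM and passed in no comparison. Gdf10 passed in all 3 comparisons and Hopx in both that involve GRP-E1F2, where both also passed from 2 libraries per group. What part Bergmann glia had in the Slc1a3 values was not tested.

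Slc1a2 encodes GLT-1 (EAAT2), the main glutamate transporter of forebrain astrocytes (NCBI gene 20511, chromosome 2, 102658239 to 102790784). It was 55.9, 49.3 and 54.9 TPM in young, 82.2, 67.9 and 57.0 TPM in aged saline and 94.0, 70.6 and 83.1 TPM in GRP-E1F2 libraries. All aged values lay above the young ones, while aged saline and GRP-E1F2 overlapped, and the aged groups spread the most. Log2 fold changes were 0.35 with age (SE 0.139, adjusted p = 0.109), 0.26 with GRP-E1F2 against aged saline (adjusted p = 0.217) and 0.61 against young saline (adjusted p = 0.00618). Slc1a2 was the member that rose in the last comparison, although not from 2 libraries per group (adjusted p = 0.0994), and without aged library 3 its rise with age passed (adjusted p = 0.0385).

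The levels of these transporters came closer together from young saline to aged saline and again to GRP-E1F2 libraries. Slc1a2 stood at 0.291, 0.208 and 0.255 of the Slc1a3 level in young libraries, at 0.508, 0.451 and 0.366 in aged saline libraries and at 0.846, 0.619 and 0.732 in GRP-E1F2 libraries. The log2 ratio was higher by 0.81 with age and by a further 0.72 with GRP-E1F2, with no overlap between groups. Exact two-sided permutation tests of 3 against 3 libraries gave p = 0.1 for each of the 3 comparisons, the smallest possible, or 0.12 after adjustment over 12 tests of 4 ratios. A ratio within a library does not change with the scaling of that library, apart from the pseudocount. Genes of neocortical neurons, where Slc1a2-rich astrocytes lie, averaged 4.50 to 5.35 on the log2(TPM + 1) scale in young, 5.75 to 6.19 in aged saline and 5.87 to 6.69 in GRP-E1F2 libraries, and genes of cerebellar neurons 7.83 to 8.31, 7.30 to 7.37 and 3.33 to 3.36. Their part in the ratio was not tested.

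Glul encodes glutamine synthetase, which makes glutamine from the glutamate taken up (NCBI gene 14645, chromosome 1, 153899929 to 153909723). Its level was 707, 698 and 711 TPM in young, 624, 599 and 607 TPM in aged saline and 755, 703 and 720.1 TPM in GRP-E1F2 libraries. The aged saline values lay below all others, and the young and GRP-E1F2 values overlapped. Glul fell with age by 0.21 (SE 0.048, adjusted p = 0.0231) and rose with GRP-E1F2 by 0.25 on the log2 scale (SE 0.048, adjusted p = 0.00736). Against young saline the GRP-E1F2 level differed by 0.04 (adjusted p = 0.518). The Glul fall with age was lost without young library 2 or 3, aged library 2 or GRP-E1F2 library 3. The log2 ratio of Glul to Slc1a2 was lower by 0.56 in aged saline than in young libraries (exact p = 0.1) and nearly level between the aged groups (difference -0.01, exact p = 0.9).

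**Figure D4:**
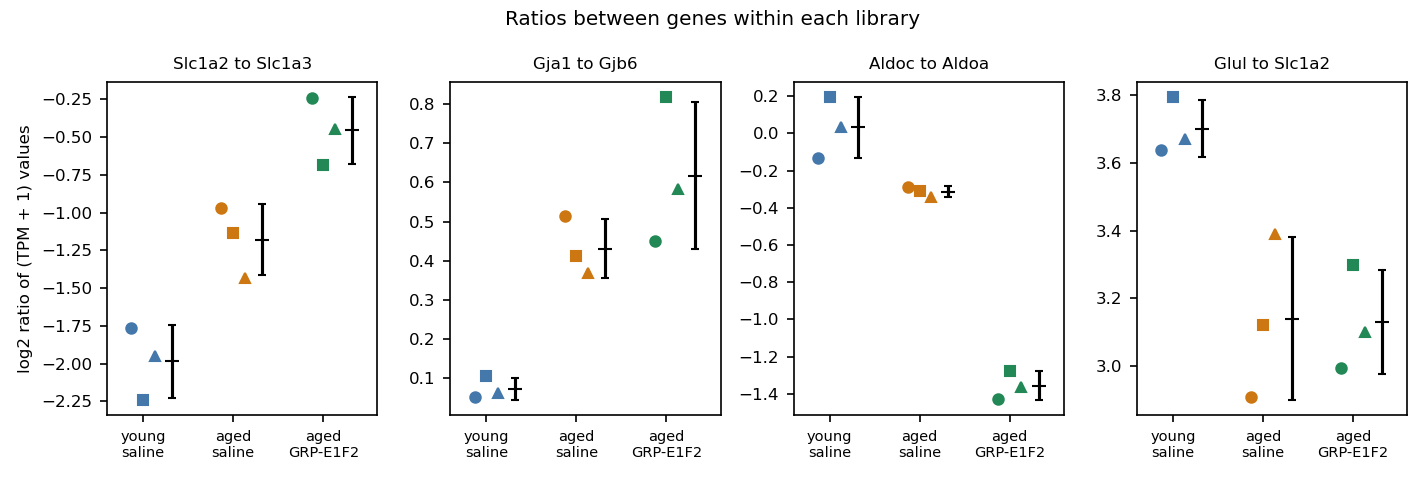
Log2 ratio of (TPM + 1) values of 4 pairs of genes in each library, with mean ± SD of 3 libraries. The ratio of Slc1a2 to Slc1a3 climbs from a mean of -1.98 in young to -1.18 in aged saline and -0.46 in GRP-E1F2 libraries, and that of Aldoc to Aldoa drops from 0.03 to -0.31 and -1.36.

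Of 15 other genes of glutamate and glutamine handling, 6 fell with age and none rose. They were Glud1, glutamate dehydrogenase (123 ± 5.84 to 93.2 ± 3.43 TPM, adjusted p = 0.00474), the glutamine carriers Slc38a1 and Slc38a2, the cystine and glutamate exchanger Slc7a11, the mitochondrial glutamate carrier Slc25a18, and Slc1a6. The last is EAAT4, the glutamate transporter of Purkinje cells, which went on from 33.8 ± 3.93 TPM in aged saline to 6.05 ± 0.473 TPM in GRP-E1F2 libraries (log2 fold change -2.30, adjusted p = 1.4e-05). With GRP-E1F2 against aged saline 3 of the 15 fell, Slc1a6, Slc38a1 and Slc38a2, and 1 rose, the neuronal transporter Slc1a1, from 25.3 ± 1.25 to 35.7 ± 1.69 TPM (adjusted p = 0.00581). Against young saline 7 fell and 2 rose. Among all genes tested, 13.4% fell and 7.47% rose with GRP-E1F2 against aged saline, and the counts there lie near those shares. With age the shares were 11.2% and 5.48%, and against young saline 29.4% and 17.2%. From 2 libraries per group the counts were 0 with age, 1 that fell with GRP-E1F2 (Slc1a6), and 3 that fell and 1 that rose against young saline. The median log2 fold changes of the list were -0.13, 0.05 and -0.05 in the 3 comparisons.

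The connexins form the gap junctions of astrocytes. Gjb6, connexin 30 (NCBI gene 14623, chromosome 14, 57123301 to 57133611), was 101, 112 and 108 TPM in young, 53.0, 55.8 and 61.3 TPM in aged saline and 52.3, 41.2 and 48.7 TPM in GRP-E1F2 libraries. Every young value was well above every aged one. Gjb6 fell with age by 0.90 on the log2 scale (SE 0.092, adjusted p = 0.00173), while GRP-E1F2 differed from aged saline by -0.26 (adjusted p = 0.0789), a difference that passed without GRP-E1F2 library 1 (adjusted p = 0.038). Gja1, connexin 43 (NCBI gene 14609, chromosome 10, 56377300 to 56390419), was 105, 120.0 and 113 TPM in young, 76.2, 74.5 and 79.4 TPM in aged saline and 71.8, 73.5 and 73.5 TPM in GRP-E1F2 libraries. Gja1 fell with age by 0.55 (SE 0.059, adjusted p = 0.00187), and between the aged groups the log2 fold change was -0.07 (SE 0.059, adjusted p = 0.427). Against young saline both connexins were lower with GRP-E1F2, Gjb6 by a log2 fold change of -1.16 and Gja1 by -0.62, also from 2 libraries per group (adjusted p = 0.00672 and 0.0187).

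The connexins were near parity in young libraries, where Gja1 stood at 1.04, 1.08 and 1.04 of the Gjb6 level. In aged saline libraries the ratio was 1.44, 1.34 and 1.3 and in GRP-E1F2 libraries 1.37, 1.78 and 1.51. The log2 ratio of Gja1 to Gjb6 was higher by 0.36 with age and by 0.55 in GRP-E1F2 against young libraries (exact p = 0.1 each), and by 0.19 between the aged groups (exact p = 0.2). Of 9 other junction genes 5 fell with age and none rose. Among these were Gjb2, connexin 26, which astrocytes and meningeal cells make (10.01 ± 0.503 to 5.69 ± 0.389 TPM, adjusted p = 0.00508), the oligodendrocyte connexins Gjb1 and Gjc3, and the pannexin Panx2. With GRP-E1F2 against aged saline 3 fell, among them Gjb1 and the endothelial connexin Gja4, and Panx1 rose, from 7.28 ± 0.197 to 12.2 ± 1.22 TPM (adjusted p = 0.00903). Against young saline 7 fell and 1, Panx1, rose, and 5 and 1 did from 2 libraries per group, which called none of them in the other 2 comparisons. Genes of mature oligodendrocytes fell at 8 of 10 with age, with summed TPM of 9104 to 9688 in young, 6162 to 7451 in aged saline and 5563 to 5738 in GRP-E1F2 libraries, and the part of these cells in the junction list was not tested. Of 7 genes of fibroblasts and mural cells, which meninges and vessel walls hold, 5 fell with age and none rose (median log2 fold change -0.72), with summed TPM of 61.4 to 75.1 in young, 27.0 to 37.2 in aged saline and 23.4 to 28.7 in GRP-E1F2 libraries, and their part in the Gjb2 values was not tested either.

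Aqp4 is the water channel of astrocyte endfeet (NCBI gene 11829, chromosome 18, 15389394 to 15410982). It was 37.4, 50.9 and 42.9 TPM in young, 21.5, 21.1 and 22.8 TPM in aged saline and 9.75, 11.8 and 11.6 TPM in GRP-E1F2 libraries. The 3 groups were fully apart. Aqp4 fell with age by 0.96 on the log2 scale (SE 0.112, adjusted p = 0.00242) and with GRP-E1F2 by a further 0.93 (SE 0.112, adjusted p = 0.000689). Against young saline its log2 fold change of -1.89 (adjusted p = 4.3e-06) was the most negative of the 10 members. From 2 libraries per group the fall with GRP-E1F2 just passed (adjusted p = 0.0493) and that with age did not (0.293).

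Slc4a4 encodes the sodium bicarbonate cotransporter NBCe1 (NCBI gene 54403, chromosome 5, 88793858 to 89239656). It was the member with the lowest mean in every group, at 19.9, 23.6 and 21.6 TPM in young, 15.6, 14.6 and 14.2 TPM in aged saline and 8.12, 11.8 and 10.3 TPM in GRP-E1F2 libraries. Here too no groups overlapped. It fell by 0.52 on the log2 scale with age (SE 0.119, adjusted p = 0.0227) and by 0.52 with GRP-E1F2 (SE 0.119, adjusted p = 0.0151). The age call was lost without young library 2 or 3 or aged library 2, and the GRP-E1F2 call without aged library 2.

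Among 19 other endfoot, ion and water genes, 18 of which passed the filter, 9 fell with age and none rose. The potassium channel Kcnj10 (Kir4.1), which buffers potassium in astrocytes, went from 46.3 ± 3.99 to 26.2 ± 1.81 TPM (adjusted p = 0.00438). Atp1b2, a sodium pump subunit of astrocytes, fell as well, from 564 ± 64.0 to 353 ± 24.4 TPM, as did Mlc1 and Hepacam, membrane proteins of astrocyte junctions. With GRP-E1F2 against aged saline 6 fell and none rose. Atp1b2 fell again, to 214 ± 16.5 TPM (adjusted p = 0.001), and the channel Kcnk1 went from 102 ± 3.46 to 67.3 ± 3.59 TPM, while Kcnj10 was 30.3 ± 4.34 TPM (adjusted p = 0.229). Of the genes that anchor Aqp4 at the endfoot, Dag1 and Dtna fell with age, while Dmd did not pass (4.99 ± 0.0348 TPM in young and 5.18 ± 0.367 TPM in aged saline libraries). Against young saline 12 fell and 1, Fxyd7, rose, and from 2 libraries per group 8 fell, with none called in the other 2 comparisons.

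Aldoc encodes aldolase C, the aldolase of astrocytes and, as zebrin II, of Purkinje cells (NCBI gene 11676, chromosome 11, 78323073 to 78327781). It was 1347, 1648 and 1504 TPM in young, 1074, 1129 and 1230 TPM in aged saline and 603, 609 and 605 TPM in GRP-E1F2 libraries. The groups did not overlap, and the GRP-E1F2 libraries were nearly equal to each other. Aldoc fell with age by 0.39 on the log2 scale (SE 0.080, adjusted p = 0.0164) and with GRP-E1F2 by 0.91 (SE 0.080, adjusted p = 1e-04), the latter also from 2 libraries per group (adjusted p = 0.0283). The age call was lost without young library 2 or 3 or aged library 2. Aldoa, the aldolase of most tissues, was 1462 ± 20.7, 1423 ± 127 and 1552 ± 73.7 TPM in the 3 groups and did not pass in any comparison. The log2 ratio of Aldoc to Aldoa was 0.03 ± 0.165 in young, -0.31 ± 0.029 in aged saline and -1.36 ± 0.077 in GRP-E1F2 libraries (SD, n = 3), and each difference had an exact p of 0.1. All 12 genes of the cerebellar neuron list, which holds Purkinje cell genes such as Pcp2, fell with GRP-E1F2, with summed TPM of 6242 to 8617 in young, 4109 to 4387 in aged saline and 508 to 598 in GRP-E1F2 libraries. What these cells had to do with the Aldoc values was not tested.

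Aldh1l1 is an enzyme of folate metabolism used as a marker of astrocytes in all regions (NCBI gene 107747, chromosome 6, 90550768 to 90599171). It was 26.1, 29.0 and 27.2 TPM in young, 24.6, 24.8 and 26.2 TPM in aged saline and 22.9, 18.7 and 20.1 TPM in GRP-E1F2 libraries. Young and aged saline overlapped, and GRP-E1F2 lay below both. The log2 fold change with age was -0.12 (SE 0.079, adjusted p = 0.328). With GRP-E1F2 Aldh1l1 fell by 0.28 (SE 0.079, adjusted p = 0.0347), but this passed in 14 of 22 alternative settings and not in a fit of the aged groups alone or from 2 libraries per group (adjusted p = 0.452). Against young saline the log2 fold change was -0.40 (adjusted p = 0.00314).

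S100b encodes a calcium-binding protein of astrocytes and some oligodendrocytes (NCBI gene 20203, chromosome 10, 76253836 to 76261319). It was 1286, 1667 and 1523 TPM in young, 1015, 1097 and 1139.9 TPM in aged saline and 532, 710.2 and 614 TPM in GRP-E1F2 libraries. No groups overlapped. S100b fell with age by 0.45 on the log2 scale (SE 0.120, adjusted p = 0.0353), and this call ended without young library 2 or 3, aged library 1 or 2 or GRP-E1F2 library 3. It fell with GRP-E1F2 by 0.82 (SE 0.120, adjusted p = 0.00196, and 0.111 from 2 libraries per group). Of 10 genes of mature oligodendrocytes 8 fell with age, 5 with GRP-E1F2 against aged saline and 9 against young saline, and none rose. From 2 libraries per group 0, 0 and 7 fell. Their median log2 fold changes were -0.41, -0.29 and -0.74, and the part of these cells in the S100b values was not tested. Of a list of 8 genes, other S100 genes and the receptor Ager, 7 were tested and the directions were mixed: S100a13 fell with age, and with GRP-E1F2 S100a10 rose from 153 ± 14.1 to 201 ± 22.1 TPM and S100a4 from 7.31 ± 2.21 to 11.9 ± 2.23 TPM while S100a16 fell from 294 ± 14.3 to 232 ± 24.9 TPM. S100a1, the most abundant of them, was 664 ± 24.0, 584 ± 22.9 and 602 ± 126 TPM and passed in no comparison. From 2 libraries per group S100a10 was the gene of this list that passed, against young saline.

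Of 20 other genes of astrocyte metabolism 9 fell with age and none rose, 4 fell and none rose with GRP-E1F2 against aged saline, and 10 fell and 1 rose against young saline. Pygm, a glycogen phosphorylase, went from 35.7 ± 3.48 to 22.8 ± 2.01 and 12.7 ± 0.971 TPM, and Slc16a1, the lactate carrier MCT1, from 25.2 ± 1.02 to 16.8 ± 1.22 and 11.9 ± 1.04 TPM, falling at each step. Ldha, a lactate dehydrogenase subunit, was the gene that rose against young saline, from 196 ± 16.5 to 276 ± 24.5 TPM. The abundant lipid carrier gene Apoe was 1957 ± 15.7, 1884 ± 358 and 1743 ± 114 TPM and Clu 505 ± 4.55, 461 ± 36.1 and 492 ± 7.57 TPM, neither passing in any comparison. With 2 libraries per group 6 of the list fell against young saline and none passed in the other comparisons.

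Among 26 other genes of astrocyte identity 18 fell with age and none rose, led by Htra1, a secreted protease (104 ± 1.32 to 69.9 ± 3.13 TPM, adjusted p = 0.00115), and Sparcl1, the synapse-promoting protein hevin (964 ± 66.6 to 663 ± 25.7 TPM, adjusted p = 0.00241). With GRP-E1F2 against aged saline 11 fell and 4 rose. Those that fell included Gpr37l1, a receptor abundant in Bergmann glia (177 ± 23.7 to 99.9 ± 3.40 TPM, adjusted p = 0.00117), Pla2g7, Daam2 and Htra1. The 4 that rose were Mfge8, a phagocytosis bridge protein, from 101 ± 4.74 to 144 ± 6.16 TPM (adjusted p = 0.000795), the chemokine Cxcl14 from 461 ± 7.11 to 651 ± 41.8 TPM, the thyroid hormone carrier Slco1c1 and the glypican Gpc5. Agt, angiotensinogen, which astrocytes of the brainstem and hypothalamus make in quantity, went from 75.2 ± 5.96 to 26.8 ± 12.5 and 9.52 ± 6.21 TPM. The list's median log2 fold changes were -0.29 with age, -0.10 with GRP-E1F2 and -0.47 against young saline, where 18 fell and 3 rose (12 and 1 from 2 libraries per group, none in the other 2 comparisons). Hindbrain position genes moved beside them, with summed TPM of 37.5 to 52.1 in young, 1.58 to 7.04 in aged saline and 0.181 to 0.657 in GRP-E1F2 libraries, and their bearing on the list was not tested.

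Of 13 tested transcription factors of the astrocyte lineage, of 14 listed, 2 fell with age, Sox9 (12.6 ± 0.663 to 8.0 ± 1.38 TPM, adjusted p = 0.0097) and Id4, and 1, Lhx2, rose. With GRP-E1F2 against aged saline Nfia went from 3.75 ± 0.321 to 1.99 ± 0.345 TPM (adjusted p = 0.00473) and Rfx4 fell too, while the Notch target Hes5 rose from 23.8 ± 2.96 to 38.9 ± 8.43 TPM (adjusted p = 0.0309). These counts, 2 that fell and 1 that rose in each comparison, lie near the shares of all genes given above (11.2% and 5.48%, 13.4% and 7.47%), and from 2 libraries per group none of the list passed in either. Against young saline 6 fell and 2 rose, of which Sox9 and Hes5 also passed from 2 libraries per group. Lhx2, a forebrain factor, was 14.1 ± 0.749, 21.4 ± 0.594 and 28.6 ± 8.32 TPM in the 3 groups.

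Reactive astrocyte genes behaved differently from gene to gene. Of 33 listed 23 passed the filter, and 3 rose and 6 fell with age, 2 rose and 5 fell with GRP-E1F2 against aged saline, and 4 rose and 8 fell against young saline. Among all genes tested the shares that rose and fell were 5.48% and 11.2%, 7.47% and 13.4%, and 17.2% and 29.4%. The counts against young saline, and the rises with GRP-E1F2 against aged saline, lie near these shares. The intermediate filament genes that reactive astrocytes raise were lower: Vim went from 65.8 ± 6.29 to 48.1 ± 6.16 and 28.0 ± 1.08 TPM (adjusted p = 0.0208 with age and 0.00106 with GRP-E1F2), and Gfap from 71.6 ± 22.0 to 41.7 ± 4.58 TPM with GRP-E1F2 (adjusted p = 0.0269), against 84.0 ± 5.38 TPM in young libraries (adjusted p = 0.35 with age). Lcn2 was 0.677 ± 0.177, 2.26 ± 0.941 and 0.877 ± 0.678 TPM, Serpina3n 8.21 ± 0.327, 7.14 ± 1.59 and 8.39 ± 1.36 TPM, and neither passed. Among the genes that rose, S1pr3 went from 1.67 ± 0.188 to 3.17 ± 0.501 TPM with age and Ptgs2, which neurons also make, from 0.415 ± 0.112 to 1.09 ± 0.0489 and 2.03 ± 0.123 TPM. B3gnt5, a glycosyltransferase, was 2.55 ± 0.410, 1.62 ± 0.313 and 0.0553 ± 0.048 TPM and fell in every comparison (adjusted p = 0.000152 with GRP-E1F2 against aged saline). From 2 libraries per group no gene of the list passed with age, and against aged saline B3gnt5 alone did (adjusted p = 0.0396), so the Vim and Gfap calls there were lost (0.0901 and 0.334). Against young saline 4 fell, Vim among them, and 1 rose. The median log2 fold changes of the reactive list were -0.04, -0.24 and -0.14. Those of the 10 homeostasis genes, -0.45, -0.37 and -0.98, were lower, a difference between lists that was not tested. The log2(TPM + 1) scale understates changes of low genes. In each library 9 to 14 of the 33 reactive genes listed lay under 1 TPM and none of the members, so the medians are not on equal terms.

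**Figure D5:**
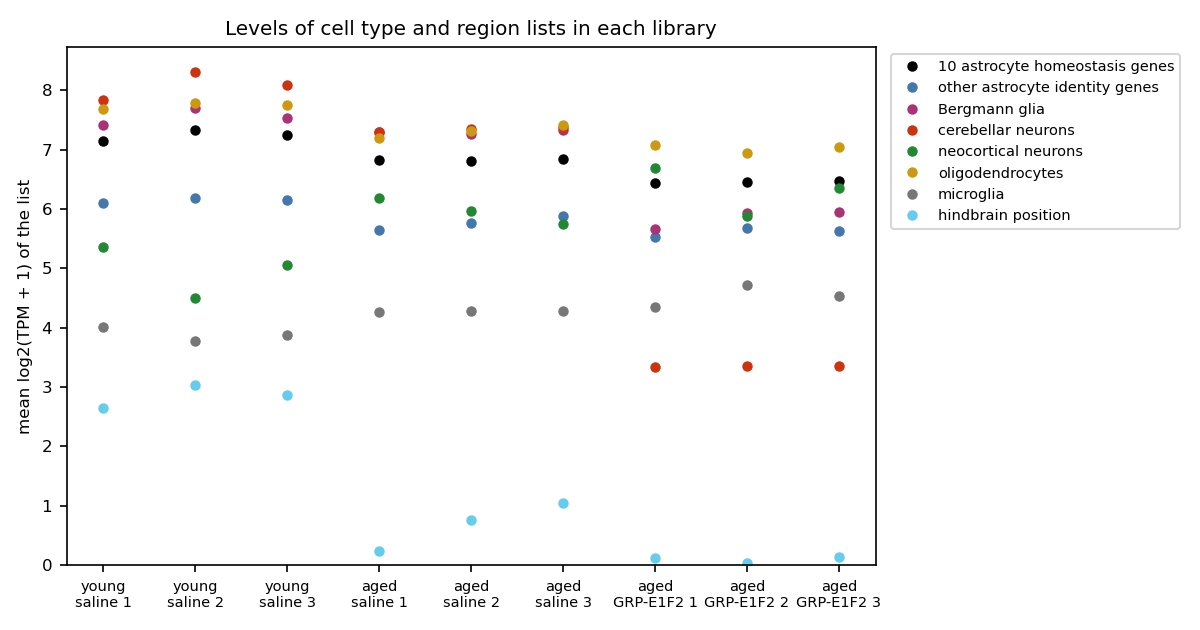
Mean log2(TPM + 1) of the 10 genes and of marker lists of other cells and regions in each library. The 10 genes lie at 7.14 to 7.33 in young, 6.80 to 6.84 in aged saline and 6.44 to 6.46 in GRP-E1F2 libraries, the cerebellar neuron list drops to 3.33 to 3.36 with GRP-E1F2, and the neocortical list is lower in young library 2 (4.50) than in young library 1 (5.35).

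Within the young group the members also differed between libraries. Young library 2 had the highest value of 8 members and the lowest of Slc1a2 and Glul, and it also had the highest cerebellar mean (8.31) and the lowest neocortical mean (4.50) of its group. Young library 1 had the lowest value of 8 members, with a cerebellar mean of 7.83 and a neocortical mean of 5.35. Since young library 3 was intermediate at 9 members, the orders of libraries 1 and 2 are 1 observation. Whether members and region genes move together within a group was not tested. In the GRP-E1F2 group library 2 had the lowest Slc1a2, Glul, Gjb6 and Aldh1l1 and the highest value of the other 6 members. Its Gja1 lead was slight (73.514 against 73.506 TPM in library 3). The cerebellar means of this group were 3.33 to 3.36, but other region means differed more between its libraries. In libraries 1 to 3 the neocortical mean was 6.69, 5.87 and 6.35. The mean of striatal neuron genes was 5.29, 6.72 and 6.24, and that of olfactory bulb genes 2.11, 3.93 and 3.34. Microglial genes went the other way from the members, with mean log2(TPM + 1) of 3.77 to 4.02 in young, 4.26 to 4.28 in aged saline and 4.36 to 4.71 in GRP-E1F2 libraries.

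The 10 genes outside the members whose profile over the 9 libraries was closest to the members' mean profile, by the root mean square difference of mean-centred log2(TPM + 1), were Tor1aip1, Brpf1, Slc20a1, Parva, Selenoo, Ppm1b, Lrrn1, Nefm, Emp2 and Dgkd, at 0.033 to 0.054. None of them was in an astrocyte list. All 24 lists together, members included, hold 258 genes beside the 13301 tested, so this absence says little. Tor1aip1, which encodes a protein of the inner nuclear membrane, was 14.2 to 16.9 TPM in young, 10.9 to 11.6 TPM in aged saline and 8.26 to 9.07 TPM in GRP-E1F2 libraries. Of the members Slc1a3 lay nearest to the mean profile (0.060) and Slc1a2 (0.603) and Aqp4 (0.454) farthest.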

How the data were processed

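RNA of 9 brain libraries was measured by RNA sequencing. The TPM values were computed by the authors per gene and library, and the deposited table was used as given. The submitters' processing notes name mm10 as build and GATK, HISAT2, SAMtools 0.1.18 and Picard as tools. Quantifier, annotation, strandedness and treatment of multiply mapped reads were not given in the sources used here. TPM keeps no depth, so depth is unknown and no counting error is given.

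The 13301 genes averaging 1 TPM or more were tested on log2(TPM + 1) with limma 3.58.1 in R 4.3.3, with eBayes using a trend, over all 9 libraries. Tests are two-sided, with Benjamini-Hochberg adjustment over all genes tested. "Fell" and "rose" mean an adjusted p under 0.05. The fold change on this scale understates that of low genes. The fit was tried on simulated data. Ratios were tested by exact permutation. The members and lists were chosen with earlier results of these data known. Named were all members, up to 4 called genes per astrocyte list and comparison by smallest p, and 10 genes of like profile. Outside that rule, Ager, Agt, Aldoa, Apoe, Clu, Daam2, Dag1, Dmd, Dtna, Fabp7, Fxyd7, Gfap, Gpc5, Hepacam, Lcn2, Ldha, Rlbp1, S100a1, Serpina3n, Slc25a18 and Slco1c1 were named after their values were seen. A few list genes are counted but not reported here by name. Python 3.11.15, numpy 2.4.6, pandas 2.3.3 and matplotlib 3.10.9 were used.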

Additional observations from a re-analysis of the deposited data

How the results depend on the processing

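With 2 libraries per group, 3 genes in all passed with age, 248 with GRP-E1F2 against aged saline and 1713 against young saline, and 0, 2 and 7 members did. Without each library in turn, 371 to 2635 genes and 4 to 9 members passed with age, and 1345 to 3060 genes with GRP-E1F2 against aged saline. The low age counts came without young library 2 (635 genes, 4 members), young library 3 (371, 4), aged library 2 (379, 4), aged library 1 (1330) and GRP-E1F2 library 3 (1172), and those with GRP-E1F2 without aged library 2 (1345) and GRP-E1F2 library 3 (1376). No log2 fold change of a member changed sign under any of 22 alternatives. Many of these could not change it. Another filter, a replicate block, other eBayes options or leaving out libraries of a group not compared keep the fold change and alter only its p-value. The signs were therefore open only under other pseudocounts or scalings, or without libraries of the groups compared. Over 660 refits of a member, 619 kept their side of the threshold, 39 lost a call and 2 gained one. The difference in the Glul to Slc1a2 ratio between the aged groups turned to 0.0021 with a pseudocount of 5 TPM. With the replicate number as a block, 8, 6 and 9 members passed (2055, 2589 and 5944 genes), Aldh1l1 with GRP-E1F2 being the call lost. Same-numbered libraries did not deviate together throughout (correlations of deviations over genes -0.055 to 0.126), so the numbers are not taken to pair them. Quantile normalisation called 951 rises and 1068 falls with age, 1427 and 1491 with GRP-E1F2 and 3106 and 3013 against young saline, with 8, 7 and 9 members. The cause of these shifts was not tested. Depth is unknown, and the number of libraries and their closeness within groups limit the precision.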
